A study of Rattus norvegicus with 16 samples.

Results

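Genes of androgen and glucocorticoid action were followed in rat epididymis, in its initial segment, after efferent duct ligation. The group was fixed as 9 gene symbols, namely Nr3c1, Srd5a2, Fkbp5, Tsc22d3, Sgk1, Zbtb16, Hsd11b1, Hsd11b2 and Gusb. The platform annotation gave 7 of the 9 a probe set, with 9 probe sets in all out of 31042 on the array other than controls. Nr3c1 and Fkbp5 had 2 probe sets each, and Srd5a2 and Zbtb16 were not analysed here. The probe set of highest mean level stood for its gene.

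Tissue came from normal adult male Sprague-Dawley rats. Efferent duct ligation, which ties off the ducts that bring testicular fluid into the epididymis, was done on 1 side of an animal, and the opposite side was sham-operated. The groups were sham, which the labels code as time 0, and 6, 12 and 18 h of ligation, with 4 arrays each and 16 in all. The most proximal piece of the initial segment was used. The single sham group served all 3 times, so change with time after surgery and the effect of ligation cannot be told apart. The 3 comparisons with sham share its 4 arrays. Replicates are biological by label, no array is tied to an animal, and p-values measure the spread between these arrays. The circulation of an animal reaches both of its sides, and hormone levels were not analysed here.

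The epididymis depends on androgen from the blood and, in its first segment, also on androgen that arrives in testicular fluid with other luminal factors. Steroid 5-alpha-reductases turn testosterone into the more potent dihydrotestosterone. Glucocorticoids act through the glucocorticoid receptor, the product of Nr3c1, a ligand-activated transcription factor that Hsp90 and its cochaperones hold ready for hormone. The androgen and glucocorticoid receptors recognise related DNA elements and share target genes, among them Fkbp5. In rat tissues the enzyme Hsd11b1 regenerates active corticosterone inside cells, and Hsd11b2 inactivates it.

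Values are log2 levels after GCRMA normalization, and changes are given between group means on that scale. Tests took probe sets that reached 5 in 4 or more of the 16 arrays, and lower levels were not told from background. A call is a limma adjusted p under 0.05 over all 13410 tested probe sets. Of the 7 leading probe sets 6 were tested, and the seventh, that of Hsd11b2, lay near the lowest value on the arrays. The second Fkbp5 probe set was tested and the second Nr3c1 probe set was not. Replicates 1 and 2 of every group stood apart from replicates 3 and 4, with 36.9% of all tested probe sets called between them. Changes within each pair of replicates are therefore given beside the pooled ones. An alternative fit set the 12 and 18 h arrays of replicates 3 and 4 apart from those of sham and 6 h. The sample titles name no such set, and time and array set cannot be told apart there. In all 4 groups, fibroblast markers were lower in replicates 3 and 4, with mean summed levels (log2 of the summed linear values) of 12.88 to 13.69, than in replicates 1 and 2, with 14.52 to 14.89. All 10 matched markers of the initial segment epithelium reached 5 on at least 1 array, and their summed level ran from 14.70 to 16.06.

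Of the 6 tested genes 2 differed from sham by 18 h. Sgk1, a kinase gene induced by serum and glucocorticoids, rose 1.60-fold, and Gusb, the gene of the lysosomal enzyme beta-glucuronidase, fell to 0.755 of its sham level. The receptor gene Nr3c1, the cochaperone gene Fkbp5, the glucocorticoid-induced leucine zipper gene Tsc22d3 and the enzyme gene Hsd11b1 were not called at any time. At 6 h and at 12 h, 0 of the 6 were called. The share of all tested probe sets called was 0.283%, 7.86% and 10.2% at 6, 12 and 18 h. Nothing particular to the group is drawn from 2 calls. Between 12 h and 6 h 0 of the 6 were called, against 4.28% of all tested probe sets, and between 18 h and 12 h 0 were called, against 0% (limma, with 0 of the 6 at an unadjusted p under 0.05). The median change of the 6 was 0.03, 0.10 and -0.01 at the 3 times, against 0.0236, 0.0236 and 0.0104 for all tested probe sets. At an unadjusted p under 0.05 limma had 0, 2 and 2 of the 6, against 5.7%, 19.5% and 22.2% of all tested probe sets.

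The 250 bases before the RefSeq start of the 2 genes that changed are shown because both receptors bind elements built from the hexamer AGAACA, alone or as a palindrome in which AGAACA is followed, after 3 bases of any kind, by its reverse complement TGTTCT. They are from GRCr8, 5′ to 3′ on the strand of the gene, with matches to AGAACA in capitals. That of Sgk1 is chr1:24807232-24807481 on the minus strand, and that of Gusb is chr12:32337057-32337306 on the plus strand.
Sgk1: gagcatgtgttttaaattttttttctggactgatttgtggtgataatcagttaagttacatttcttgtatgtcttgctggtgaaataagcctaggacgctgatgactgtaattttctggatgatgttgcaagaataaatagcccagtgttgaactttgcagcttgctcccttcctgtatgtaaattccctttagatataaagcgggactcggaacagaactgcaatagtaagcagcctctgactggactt
Gusb: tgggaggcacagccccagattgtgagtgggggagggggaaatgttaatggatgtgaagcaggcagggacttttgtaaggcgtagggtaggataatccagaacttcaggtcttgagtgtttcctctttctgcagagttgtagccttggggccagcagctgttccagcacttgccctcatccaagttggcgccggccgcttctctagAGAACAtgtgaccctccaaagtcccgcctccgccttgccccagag
The Gusb window held 1 match to AGAACA, at -45 to -40 from the start, and the Sgk1 window held 0. Neither held the palindrome. The search took both strands, and a palindrome match contains the hexamer on each strand. Of 27457 rat promoter windows of the same length 17.1% held AGAACA and 0.00364% the palindrome. Of the 9 members 6 had a window in the table, 1 of which held the hexamer and 0 the palindrome. A match is a run of letters and not a shown binding site. The whole gene of Sgk1 is annotated at chr1:24799391-24916886 and that of Gusb at chr12:32337281-32350838. The starts used for both windows lie inside these spans, so the Sgk1 window lies within the annotated gene and the Gusb window ends within it. The others are Nr3c1 at chr18:31522783-31644508, Fkbp5 at chr20:6458931-6577227, Tsc22d3 at chrX:109006410-109066389, Hsd11b1 at chr13:107277526-107327462 and Hsd11b2 at chr19:50307569-50312812. Which exons the array probes cover was not used here.

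Sgk1 encodes a kinase that, in kidney and other epithelia, raises sodium uptake by acting on the ubiquitin ligase Nedd4l. Its levels were 8.69, 8.53, 8.73 and 8.98 in sham, and 8.59, 8.75, 8.70 and 8.95 at 6 h. They were 9.27, 9.45, 9.07 and 9.12 at 12 h, and 9.78, 9.38, 9.55 and 8.92 at 18 h, in the order of replicates 1 to 4. Sham and 6 h covered the same range, every 12 h array lay above every sham array, and at 18 h the array of replicate 4 fell within the sham range. At 12 h 6.37% of all tested probe sets lay above sham on every array. The change at 18 h was 0.68 ± 0.164 (SE, n = 4 arrays each, 95% interval 0.33 to 1.03, adjusted p = 0.0167). At 12 h it was 0.49 ± 0.164 (adjusted p = 0.0895), and at 6 h 0.01 ± 0.164 with an interval of -0.34 to 0.36. Between 18 h and 6 h the difference was 0.66 ± 0.164 (adjusted p = 0.0229), where 7.88% of all tested probe sets were called. In bulk tissue a change in the number of cells of a type and a change in RNA per cell cannot be told apart.

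The rise of Sgk1 was larger in replicates 1 and 2 than in replicates 3 and 4, at 0.97 and 0.38 for 18 h and 0.75 and 0.24 for 12 h. That difference between pairs was not tested. Within replicates 3 and 4 alone the 18 h change was not called (adjusted p = 0.358), and with the array pair as a block it was (adjusted p = 0.0127). With the array set as a block, which rests mostly on replicates 1 and 2 for this contrast, Sgk1 was called at 12 h too, at 0.74 (adjusted p = 0.0171), and stood at 0.93 at 18 h (adjusted p = 0.00407). The 18 h call was lost without sham replicate 2 (0.61, adjusted p = 0.0536), without 18 h replicate 1 (0.55, adjusted p = 0.0543) and without 18 h replicate 3 (0.63, adjusted p = 0.0532). The call between 18 h and 6 h was lost without 6 h replicates 1, 2 or 3 (adjusted p = 0.0702, 0.0539 and 0.0623) and without 18 h replicates 1 or 3 (0.0712 and 0.0682). Summed over 8 fat markers, the 18 h level averaged 9.26 in the pair of replicates 1 and 2 and 6.38 in the other pair, against 7.74 and 7.20 in sham. Their part in the result was not tested, and 5 of the 8 markers, among them Adipoq, Plin1, Cidec and Lep, lay under 5 on every array. The sum rested mostly on Lpl, Fabp4 and Cfd. These stood at 8.38, 7.25 and 6.61 in 18 h replicate 1 and 8.62, 7.1 and 5.96 in 18 h replicate 2. Fibroblast markers had a median change of 0.16 at 18 h, with 0 of 12 called. At 12 h the summed level of 7 matched neutrophil markers averaged 9.76 in replicates 1 and 2 and 5.22 in replicates 3 and 4. Sham stood at 5.26 and 5.21. Of these 7 markers, 4 lay under 5 on every array. S100a9 stood at 8.47 and 10.36 in 12 h replicates 1 and 2, and S100a8 at 4.92 and 8.75. Csf3r, Cxcr2, Mmp8 and Camp averaged 2.47, 2.22, 2.22 and 2.22 at 12 h, and Il1b 3.37. For the epithelial markers the summed level averaged 14.77 and 15.72 at 12 h, against 15.64 and 15.94 in sham. Among them Cst8, Cst11, Cst12, Ggt1, Ros1 and Aqp9 changed by -1.18, -0.63, -1.31, -0.6, -0.53 and -1.42 at 12 h. Epcam, Krt8, Krt18 and Cdh1 changed by -0.03, 0.21, 0.07 and 0.18. A fall of this sum is therefore not a count of epithelial cells. Whether cell numbers had a part in the 12 h rise of Sgk1 was not tested.

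Gusb is strongly androgen-induced in mouse kidney, and in the epididymis its product is a lysosomal and secreted glycosidase. Its levels were 8.21, 8.08, 8.39 and 8.51 in sham, and 8.26, 8.28, 8.31 and 8.43 at 6 h. They were 7.95, 7.91, 8.11 and 8.03 at 12 h, and 7.77, 7.98, 7.89 and 7.94 at 18 h. All 18 h arrays lay below all sham arrays, which 6.53% of all tested probe sets did, while at 12 h the array of replicate 3 lay above the lowest sham array. Every array at 12 h and at 18 h lay below every array at 6 h, as did 6.42% and 8.43% of all tested probe sets. The change at 18 h was -0.41 ± 0.0996 (95% interval -0.62 to -0.19, adjusted p = 0.0181), and at 12 h -0.30 ± 0.0996 (adjusted p = 0.0919). At 6 h it was 0.02 ± 0.0996 with an interval of -0.19 to 0.23. Between 18 h and 6 h the difference was -0.43 ± 0.0996 (adjusted p = 0.0174).

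Within the pairs the 18 h change of Gusb was -0.28 in replicates 1 and 2 (adjusted p = 0.259 alone) and -0.54 in replicates 3 and 4 (adjusted p = 0.0378 alone). At 12 h the changes were -0.22 and -0.38. Levels were 0.15 higher in replicates 3 and 4 than in replicates 1 and 2 over all groups (adjusted p = 0.0541), and with the array pair as a block the changes of Gusb were called at 12 h (adjusted p = 0.0248) and 18 h (adjusted p = 0.00353). With the array set as a block, which also separates the 12 and 18 h arrays of replicates 3 and 4 from those of sham and 6 h, Gusb was not called at 12 h (-0.24, adjusted p = 0.151) and was called at 18 h (-0.35, adjusted p = 0.0385). The 18 h call was lost without sham replicate 3 (-0.37, adjusted p = 0.0569), sham replicate 4 (-0.34, adjusted p = 0.065) and 18 h replicate 1 (-0.37, adjusted p = 0.0586). At 12 h Gusb was called without sham replicate 2 (-0.37, adjusted p = 0.043). Between 18 h and 6 h the call was lost without 6 h replicate 4 (adjusted p = 0.0513) and without 18 h replicate 1 (adjusted p = 0.0565). The summed level of spermatid and sperm markers, whose cells reach the segment in luminal fluid, was 8.50 to 11.28 in sham, 5.64 to 9.14 at 6 h, 5.63 to 6.97 at 12 h and 5.64 to 6.13 at 18 h. At 6 h 1 of 3 tested markers was called lower, and the summed levels of 6 h and sham overlapped. The part of these cells in the result was not tested. The summed level of the epithelial markers was 15.29 to 15.71 at 18 h, against 15.40 to 15.94 in sham.

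**Figure D1:**
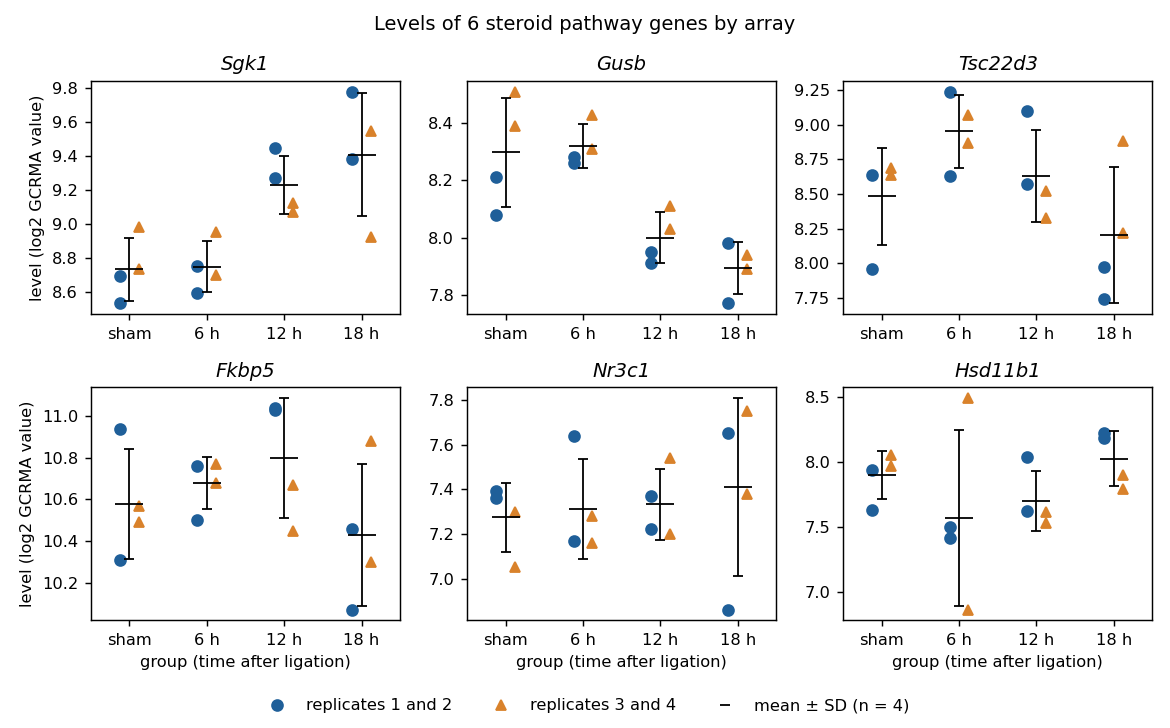
Levels of the 6 tested genes on each array (y axis, log2 GCRMA value) in sham and at 6, 12 and 18 h of ligation (x axis), with circles for replicates 1 and 2, triangles for replicates 3 and 4, and bars for the mean ± SD of 4 arrays. Each panel has its own y range. All 18 h arrays of Gusb lie below all sham arrays, and those of Sgk1 lie above them except replicate 4.

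Tsc22d3, whose product (GILZ) restrains inflammatory transcription and which is a standard readout of glucocorticoid action, was not called against sham. Its levels were 8.64, 7.96, 8.69 and 8.64 in sham, and 9.24, 8.63, 9.07 and 8.87 at 6 h. They were 9.10, 8.57, 8.33 and 8.52 at 12 h, and 7.97, 7.74, 8.22 and 8.88 at 18 h. The 6 h mean was the highest of the 4 groups and the 18 h mean the lowest, and neighbouring groups overlapped. Changes against sham were 0.47 ± 0.247 at 6 h, 0.14 ± 0.247 at 12 h and -0.28 ± 0.247 at 18 h (adjusted p = 1, 0.839 and 0.577). In fits that left out 1 array the 6 h change ran from 0.29 to 0.58 and was never called. The widest difference lay between 18 h and 6 h, at -0.75 ± 0.247 (95% interval -1.28 to -0.22, adjusted p = 0.0808). Within replicates 1 and 2 it was -1.08, and within replicates 3 and 4 -0.42. Without 18 h replicate 4, the highest of its group, the difference was -0.98 and was called (adjusted p = 0.0156), and with arrayWeights, which weights arrays by their scatter, it was -0.86 (adjusted p = 0.0189).

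Fkbp5, a cochaperone gene whose product lowers hormone binding by the glucocorticoid receptor and which the receptor itself induces, had leading levels of 10.94, 10.31, 10.49 and 10.57 in sham, and 10.76, 10.50, 10.68 and 10.77 at 6 h. At 12 h they were 11.04, 11.03, 10.45 and 10.67, and at 18 h 10.07, 10.46, 10.30 and 10.88. All 4 groups overlapped. Changes against sham were 0.10, 0.22 and -0.15 at the 3 times (SE 0.184, adjusted p = 1, 0.596 and 0.717). The other probe set gave 0.03, 0.21 and -0.30 (SE 0.247, adjusted p = 1, 0.738 and 0.554). Both probe sets were highest at 12 h and lowest at 18 h by group mean. The pairs of replicates differed at 12 h, with 0.41 and 0.03 for the leading probe set and 0.61 and -0.18 for the other. The other probe set was lower in replicates 3 and 4 over all groups (-0.42, adjusted p = 0.0292).

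Nr3c1 was near 7 throughout. Its levels were 7.39, 7.36, 7.05 and 7.30 in sham, and 7.64, 7.17, 7.28 and 7.16 at 6 h. They were 7.22, 7.37, 7.54 and 7.20 at 12 h, and 7.65, 6.86, 7.38 and 7.75 at 18 h. The groups overlapped at every time. Changes against sham were 0.04, 0.06 and 0.14 (SE 0.176, adjusted p = 1, 0.919 and 0.727), and the 95% interval at 18 h ran from -0.24 to 0.52. These intervals do not show that the receptor transcript was unchanged, and they leave room for a rise or fall of that size. The second Nr3c1 probe set had levels of 2.22 to 3.12 on all arrays and was under the minimum level.

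The enzymes that set glucocorticoid levels inside cells were read unequally. Hsd11b1 had levels of 7.63, 7.94, 7.97 and 8.05 in sham, and 7.50, 7.41, 8.49 and 6.86 at 6 h. They were 7.62, 8.04, 7.61 and 7.53 at 12 h, and 8.18, 8.22, 7.90 and 7.79 at 18 h. The 6 h arrays spread the most, with an SD of 0.677 against 0.185 in sham. Changes against sham were -0.33, -0.20 and 0.12 (SE 0.257, adjusted p = 1, 0.777 and 0.857). Between 18 h and 6 h the difference was 0.46 (adjusted p = 0.327), which was called without 6 h replicate 3 (0.76, adjusted p = 0.0277). Hsd11b2 lay at the lowest value, 2.22, on 15 of 16 arrays and at 2.29 on 18 h replicate 2, so it was not told from background and no change is given. H6pd, whose product supplies Hsd11b1 with its cofactor, stood at -0.34, -0.21 and 0.38 against sham (adjusted p = 1, 0.802 and 0.537).

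**Figure D2:**
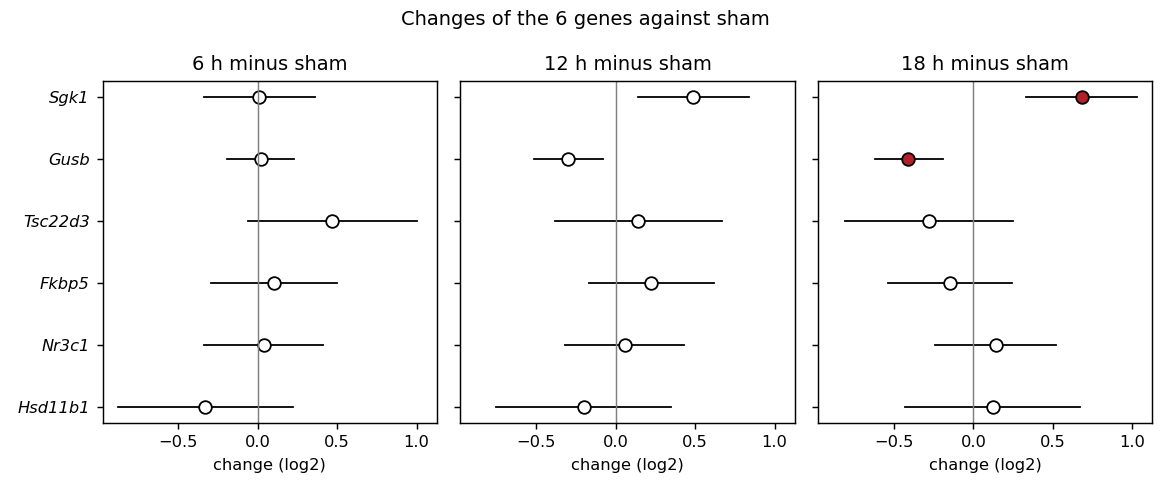
Changes against sham (x axis, log2) of the 6 tested genes at 6, 12 and 18 h, with 95% intervals and filled points for an adjusted p under 0.05. Only Sgk1 and Gusb at 18 h are filled, at 0.68 and -0.41.

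**Figure D3:**
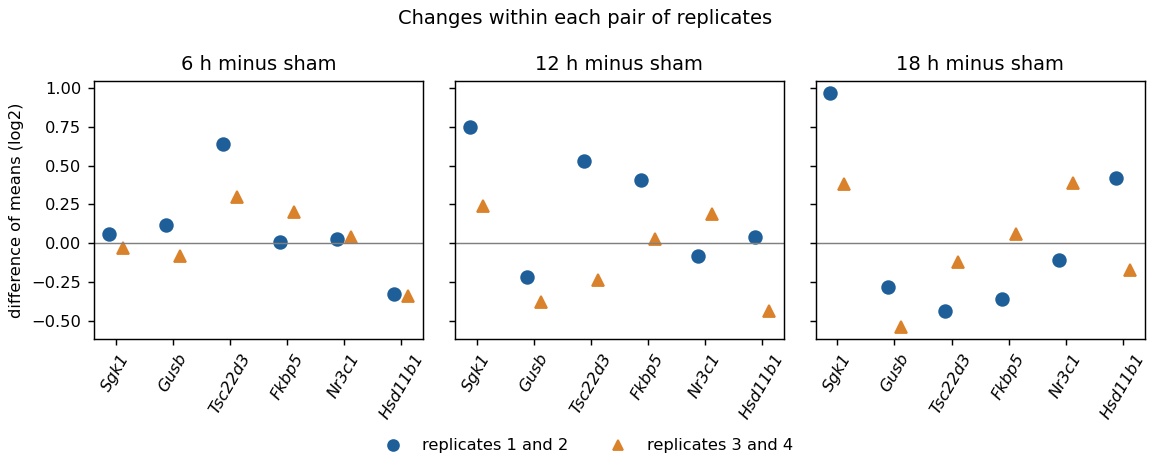
Differences of means against sham (y axis, log2) within replicates 1 and 2 (circles) and within replicates 3 and 4 (triangles) for each gene at 6, 12 and 18 h. Sgk1 and Gusb have the same sign in both pairs at 12 and 18 h, while Tsc22d3 at 12 h stands at 0.53 and -0.24.

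Beside the members, other genes of the pathway were counted in lists. Of the 6 steroid receptor genes listed, 5 had a matched probe set, and the androgen receptor gene was not analysed here. The 2 tested were Nr3c1 and Nr3c2, which encodes the mineralocorticoid receptor. Nr3c2 had levels of 5.04, 4.34, 5.28 and 5.05 at 18 h, against 5.80, 5.53, 5.82 and 5.70 in sham. All 18 h arrays lay below all sham arrays, as did 6.53% of all tested probe sets. Nr3c2 fell by 0.78 ± 0.191 (limma adjusted p = 0.0174). Its 18 h mean of 4.93 lay just under 5, below which levels were not told from background. It was called at 12 h too, at -0.68 (adjusted p = 0.0421). The 18 h call was lost without sham replicate 3 (adjusted p = 0.0518), with no minimum level (adjusted p = 0.0512) and with only those 2 groups in the fit (adjusted p = 0.0584), and the 12 h call held in 1 of 8 fits that left out 1 array, with adjusted p of 0.0342 to 0.134. The progesterone and estrogen receptor genes Pgr, Esr1 and Esr2 had sham means of 2.22 to 2.36 and were not tested.

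Among 12 tested genes of receptor chaperones and cofactors, 1 rose and 1 fell at 18 h, which is 16.7% of them, where 10.2% of all tested probe sets were called. Ncoa1, which encodes a coactivator of steroid receptors, rose by 0.59 ± 0.0911 (adjusted p = 0.000784), and Bag1, a gene of an Hsp70 cochaperone that binds steroid receptors, fell by 0.61 ± 0.133 (adjusted p = 0.00895). Fkbp4, whose product opposes that of Fkbp5 in receptor complexes, stood at 0.07 at 18 h (adjusted p = 0.887) and 0.42 at 12 h (adjusted p = 0.147). Of 11 tested genes of steroid metabolism, 1 fell at 18 h (9.09%, near the 10.2% of all tested probe sets) and 10 were not called. It was Hsd17b12, at -0.54 ± 0.0969 (adjusted p = 0.00225), a gene better known for fatty acid elongation. Srd5a3, a steroid reductase family gene better known for dolichol synthesis, stood at 0.04 (adjusted p = 0.937).

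Of 30 tested glucocorticoid target genes, which include Fkbp5, Tsc22d3 and Sgk1, 2 rose at 6 h, 9 rose and 3 fell at 12 h, and 13 rose and 3 fell at 18 h. That is 6.67%, 40% and 53.3% of the list, where 0.283%, 7.86% and 10.2% of all tested probe sets were called. The list was chosen with earlier results of these data known, and it takes only the leading probe set of each gene. The shares are therefore no test of the list. The median change was 0.01, 0.49 and 0.52, against 0.0236, 0.0236 and 0.0104 for all tested probe sets. Within replicates 1 and 2 alone 0 were called at 6 h, 8 rose and 1 fell at 12 h, and 9 rose and 2 fell at 18 h, where 0.0298%, 4.6% and 6.17% of all tested probe sets were called. Within replicates 3 and 4 alone 0 were called at 6 h, 4 rose and 3 fell at 12 h, and 6 rose and 3 fell at 18 h, where the shares were 0.0224%, 4.27% and 7.68%. The 2 genes that rose at 6 h were Ddit4, which encodes an inhibitor of mTOR signalling, at 0.94 (adjusted p = 0.0216), and Gadd45a at 0.84 (adjusted p = 0.0159), whose 6 h call held in 3 of 8 fits that left out 1 array. The 3 that fell at 12 and 18 h were Klf15, Mertk and Irs2. Of the genes named by rule, Cebpd, which encodes a C/EBP transcription factor, stood at 2.88 ± 0.225 (adjusted p = 3.61e-06) at 18 h, and Cdkn1a, a cell cycle inhibitor gene, at 2.42 ± 0.4 (adjusted p = 0.00132). Mt2A, a metallothionein gene, rose by 2.16 ± 0.304 (adjusted p = 0.000387), and Gadd45a, a growth arrest gene, by 1.61 ± 0.13 (adjusted p = 4.93e-06). These 4 genes are known to respond to cytokines, metals or DNA damage as well as to glucocorticoids. Per1, a clock gene that glucocorticoids induce, stood at -0.04 ± 0.324 (adjusted p = 0.969).

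**Figure D4:**
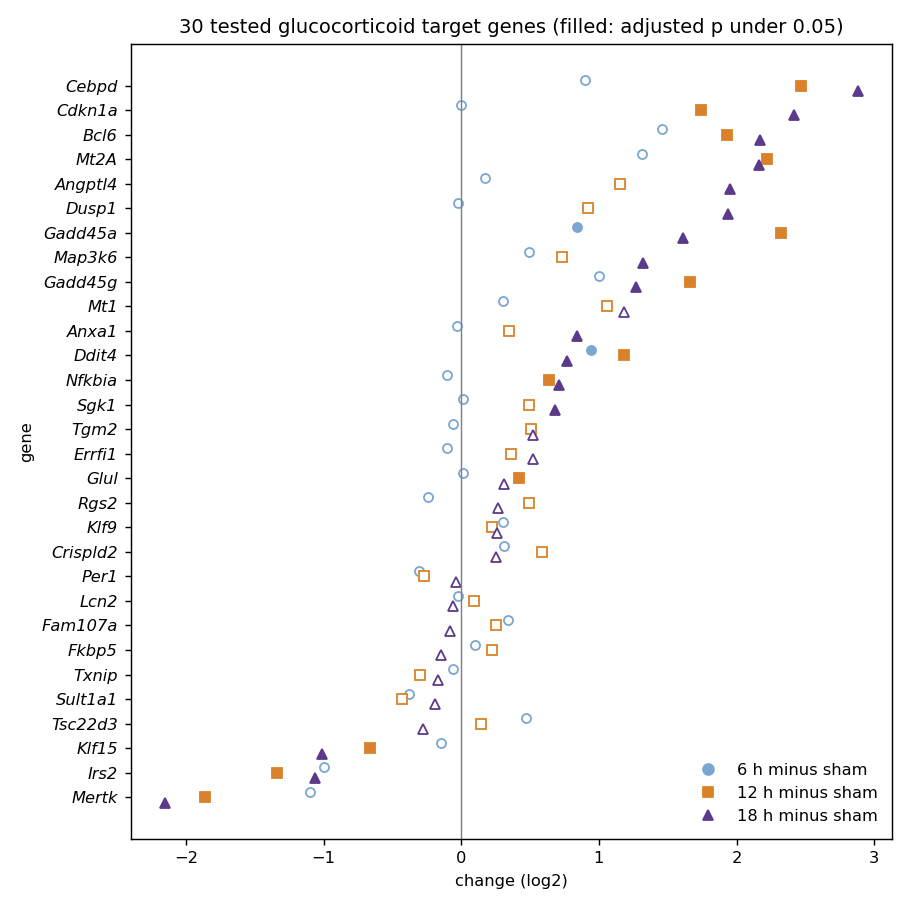
Changes against sham (x axis, log2) of the 30 tested glucocorticoid target genes (y axis, sorted by the 18 h change) at 6 h (circles), 12 h (squares) and 18 h (triangles), filled where the adjusted p was under 0.05. Cebpd stands at 2.88 at 18 h, Sgk1 at 0.68 and Tsc22d3 at -0.28.

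Salt transport genes linked to corticoid receptors had 5 tested members, of which 2 rose at 18 h and 3 were not called, where 10.2% of all tested probe sets were called. Beside Sgk1 the other was Nedd4l, the gene of the ubiquitin ligase that the Sgk1 kinase acts on. The levels of Nedd4l were 7.52, 6.87, 7.49 and 7.28 at 18 h, against 6.25, 6.08, 5.98 and 6.23 in sham. The change was 1.16 ± 0.169 (adjusted p = 0.000494), and 1.04 and 1.29 within the pairs. The sodium channel genes Scnn1a, Scnn1b and Scnn1g had sham means of 2.75, 2.30 and 2.23 and were not tested.

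Of 21 tested androgen target genes, Gusb and Fkbp5 included, 1 fell at 6 h (Slc45a3, at -1.06, whose 6 h call held in 2 of 8 fits that left out 1 array), 3 rose and 4 fell at 12 h, and 3 rose and 4 fell at 18 h. The shares called were 4.76%, 33.3% and 33.3%, where 0.283%, 7.86% and 10.2% of all tested probe sets were called, and the median change was 0.02, 0.10 and -0.05. This list too was chosen with earlier results known and takes only the leading probe set of each gene, so the shares are no test of it. At 18 h Slc45a3, a solute carrier gene, fell by 1.53 ± 0.193 (adjusted p = 0.000149), and Abcc4, a gene of an efflux transporter, fell by 2.44 ± 0.533 (adjusted p = 0.00904). Steap4, a metalloreductase gene that is also induced by inflammation, rose by 2.51 ± 0.415 (adjusted p = 0.00133), and Tubb2a, a tubulin gene, rose by 1.77 ± 0.34 (adjusted p = 0.00396). Within replicates 1 and 2 alone 4 rose and 4 fell at 12 h and 3 rose and 2 fell at 18 h, where 4.6% and 6.17% of all tested probe sets were called. Within replicates 3 and 4 alone 0 rose and 2 fell at 12 h and 2 rose and 4 fell at 18 h, where the shares were 4.27% and 7.68%. Adam7, an epididymal membrane protein gene, stood at -0.04 (adjusted p = 0.862). Genes of the androgen list changed in both directions.

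The genes whose departures from sham were most like those of the 2 called members were found by the root mean square difference over the 16 arrays among 8302 genes. For Sgk1 they were Tagln2, a gene of an actin-binding protein, at 0.166 log2 units, and Flot2, a gene of a membrane raft protein, at 0.186. Their mean departures at 18 h were 0.73 and 0.67. For Gusb they were Fam8a1 at 0.106 and Itm2c at 0.112, with mean departures of -0.38 and -0.33. All of these values share the same arrays, and no more is drawn from them.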

How the data were processed

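RNA of 16 tissue samples was hybridised to Affymetrix rat arrays, 1 array each, from 4 groups of 4. The deposited values are log2 levels per probe set made with GCRMA (per the submitters' processing notes, which name no version). GCRMA corrects background by probe sequence and normalizes by quantiles, which brings array medians together. Scanner files were not used here.

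Of 31099 probe sets 57 controls were left out, and 13410 passed a minimum of 5 in at least 4 arrays. Changes were fitted with limma 3.58.1 in R 4.3.3 (lmFit and eBayes, 4 group means, all 16 arrays), with Benjamini-Hochberg adjustment over the tested probe sets. The fit was also run on simulated data with independent noise on each array. Those data held no difference between pairs of replicates, so that run cannot show how the fit copes with one. Symbols came from the platform annotation, and coordinates and promoter windows from RefSeq, GRCr8. Members, lists and tests were chosen with earlier results of these data known. The named genes were all members and, per list, up to 4 called genes with the largest change, with Nr3c2, H6pd, Fkbp4 and Per1 always given. Other genes named in the lists (Ddit4, Klf15, Mertk, Irs2, Pgr, Esr1, Esr2, Srd5a3, Scnn1a, Scnn1b, Scnn1g and Adam7) were chosen after their values were seen. Marker lists covered epithelium, fibroblasts, macrophages, neutrophils, T and NK cells, smooth muscle, endothelium, fat, sperm and red cells. At 18 h limma called 0 of 11 macrophage, 0 of 3 T and NK cell, 0 of 9 smooth muscle, 0 of 3 fat and 0 of 1 red cell markers, 1 of 4 endothelial markers (higher), 2 of 10 epithelial markers (lower) and 3 of 3 sperm markers (lower). The 2 epithelial markers called were Ggt1 (-0.76) and Aqp9 (-2.23). Epcam, Krt8, Krt18 and Cdh1 stood at -0.08, 0.48, 0.35 and 0.41, and Cst8, Cst11, Cst12 and Ros1 at -0.49, -0.18, -0.13 and -0.54. No neutrophil marker was tested.

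Replicate numbers were not taken to pair arrays. Arrays of the same number in other groups had correlations of deviations from 0.00651 to 0.556, and arrays of the other number in the same pair -0.00558 to 0.63.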

Additional observations from a re-analysis of the deposited data

Results flagged for a closer look

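Among 28 groups of 4 arrays, 2 held an array far from the other 3, where chance gives about 1 in 20. Tsc22d3 was low in sham replicate 2, at 7.96 against 8.64 to 8.69 in the other sham arrays. Hsd11b1 was high in 12 h replicate 2, at 8.04 against 7.53 to 7.62 in the other 12 h arrays. On that array the neutrophil marker S100a9 stood at 10.36 and the fat marker Lpl at 9.64, the highest of the 12 h group for both. S100a8 stood there at 8.75, Fabp4 at 7.37 and Cfd at 6.35, while the fat markers Adipoq and Plin1 lay at 2.22. The neutrophil markers Cxcr2, Mmp8 and Camp each averaged 2.22 over the 12 h arrays. The part of fat or neutrophils in the Hsd11b1 value was not tested.

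The changes of Sgk1 and Gusb differed between times. The difference between 18 h and 6 h was 0.66 for Sgk1 (adjusted p = 0.0229) and -0.43 for Gusb (adjusted p = 0.0174).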

How the results depend on the processing

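The count of the 6 tested members called was 0 for 6 h against sham and for 18 h against 12 h in every alternative. For 12 h against sham and 12 h against 6 h, 0 became 1 with the replicate block, with the array pair as a block and with the array set as a block (replicates 1 and 2, replicates 3 and 4 of sham and 6 h, and replicates 3 and 4 of 12 and 18 h), and 2 with arrayWeights. The gene called was Gusb with the replicate and pair blocks, Sgk1 with the set block and both with arrayWeights. The 2 calls at 18 h against sham became 0 with only those 2 groups in the fit, 1 within each pair of replicates alone and 0 at an adjusted p under 0.01. The 2 between 18 h and 6 h became 1 with no minimum level, 1 with only those 2 groups, 1 within replicates 1 and 2, 0 within replicates 3 and 4, 0 at 0.01, and 3 with the replicate block and with arrayWeights, which added Tsc22d3. The 2 of the F-test over all times became 1 with no minimum level, 1 with the array set as a block, 1 and 0 within the pairs and 0 at 0.01. Leaving out 1 array gave 0 to 2 at 18 h against sham, 0 to 3 between 18 h and 6 h, 0 to 1 at 12 h against sham, 0 between 12 h and 6 h and 1 to 2 for the F-test. With the replicate block, where the numbers were not shown to pair arrays, 10 of 16 arrays correlated best with their own number. That block called Gusb at 12 h against sham and against 6 h (adjusted p = 0.0407 each) and Tsc22d3 between 18 h and 6 h (-0.75, adjusted p = 0.0355). Over all probe sets the calls at 12 and 18 h were 1054 and 1362, 1709 and 2165 with the replicate block, 1735 and 2179 with the array pair block, 2426 and 2111 with arrayWeights and 653 and 914 with no minimum level, and the 38 at 6 h became 104 with arrayWeights and 7 with no minimum level. No called change of a member or a named gene reversed. Over all alternatives Sgk1 at 18 h stayed between 0.38 and 0.97 and Gusb between -0.54 and -0.28, and each was called in 16 of 22. With the probe sets of a gene averaged, Nr3c1 gave no value. Fits within the pairs were added for the lists after the data were seen. Levels under 5, as for Hsd11b2, limit what can be measured, and 4 arrays a group limit precision.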
